A study of Mus musculus with 6 samples.

Results

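The NR4A and EGR genes of mouse quadriceps were followed by the H3K27ac peaks that the authors' tables annotate to Nr4a1, Nr4a2, Nr4a3, Egr1, Egr2 and Egr3, whether the peak lay at the promoter or at a distance. Of 46988 peaks listed for control mice, 18 were annotated to 5 of these 6 genes, and of 40721 listed for detrained mice, 16 were annotated to all 6. With equal numbers of the strongest peaks in each list these counts were 13 and 16. Both groups were wild type males of strain C57BL/6 in the labels and C57BL/6J in the study's methods. Control mice were sedentary, and detrained mice had a running wheel for 4 weeks from 8 weeks of age and were then rested for 72 h without it. Each group had 2 H3K27ac libraries, named C2 and C3 for control and Ex1 and Ex2 for detrained mice, and 1 input library, which is chromatin without immunoprecipitation (its strain is written C57BL/7 and C57BL/8 in the labels of the inputs). Each library came from 1 quadriceps of 1 mouse, and the tissue is a mixture of fibres and other cells, so that a change in the share of a cell type and a change of acetylation within cells cannot be told apart.

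H3K27ac, acetylation of lysine 27 of histone H3, marks active promoters and enhancers. The NR4A genes encode orphan nuclear receptors that bind DNA without a known circulating ligand, and the EGR genes encode zinc finger transcription factors. Both families are immediate early genes: contraction of muscle induces their transcription within minutes to hours, by calcium, cAMP and kinase signals that act on CREB, MEF2 and serum response factor at their promoters, and the transcripts then decay. NR4A receptors are known in muscle for the control of glucose and fatty acid use, and EGR1 and EGR3 for responses to growth signals, EGR3 also in the muscle spindle. The comparison therefore asks what acetylation these early genes carried 3 days after running had stopped, set against mice that never ran.

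Promoter sequences are shown for the 4 genes for which a RefSeq window (GRCm38, the build that mm10 names) was at hand, since these windows lay inside called peaks of at least 1 group and could be searched for elements known from early genes. Each line gives the 250 bases before the start site used in the authors' annotation, 5′ to 3′ on the strand of the gene, and capitals mark matches on either strand to the motifs searched.
Nr4a1, chr15:101266596-101266845, plus strand: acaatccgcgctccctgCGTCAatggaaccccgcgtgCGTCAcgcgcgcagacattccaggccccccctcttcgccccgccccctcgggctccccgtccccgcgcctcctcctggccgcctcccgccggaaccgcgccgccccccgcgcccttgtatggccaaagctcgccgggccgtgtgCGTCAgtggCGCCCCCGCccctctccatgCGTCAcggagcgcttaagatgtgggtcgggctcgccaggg
Nr4a2, chr2:57124004-57124253, minus strand: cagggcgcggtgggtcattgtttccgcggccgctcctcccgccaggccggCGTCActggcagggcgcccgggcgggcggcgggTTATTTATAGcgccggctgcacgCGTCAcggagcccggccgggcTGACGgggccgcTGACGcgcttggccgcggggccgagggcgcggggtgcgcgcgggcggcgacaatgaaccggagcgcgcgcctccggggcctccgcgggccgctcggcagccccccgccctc
Nr4a3, chr4:48045055-48045304, plus strand: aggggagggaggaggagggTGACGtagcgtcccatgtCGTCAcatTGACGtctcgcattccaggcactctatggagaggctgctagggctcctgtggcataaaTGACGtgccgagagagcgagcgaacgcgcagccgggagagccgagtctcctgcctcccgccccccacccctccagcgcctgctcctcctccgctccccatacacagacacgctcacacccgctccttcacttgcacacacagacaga
Egr2, chr10:67537620-67537869, plus strand: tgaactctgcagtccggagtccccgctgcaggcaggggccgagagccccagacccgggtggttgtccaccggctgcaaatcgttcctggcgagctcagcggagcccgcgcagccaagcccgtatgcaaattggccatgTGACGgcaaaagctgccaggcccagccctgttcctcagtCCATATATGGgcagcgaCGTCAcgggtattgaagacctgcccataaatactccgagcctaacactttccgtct
The windows of Nr4a1, Nr4a2 and Nr4a3 lay within a peak of both groups, and that of Egr2 within a detrained peak alone.

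The motif these promoters had in common was the short form of the cAMP response element, TGACG, the core to which CREB binds. It occurred 4 times each in the windows of Nr4a1, Nr4a2 and Nr4a3 and 2 times in that of Egr2. Of 32851 promoter windows of the same length in the RefSeq table, 17.8% held it at least 1 time, 3.90% at least 2 times and 0.137% at least 4 times. It contains a CpG, and the GC content of the windows was 74.4% for Nr4a1, 80% for Nr4a2, 63.6% for Nr4a3 and 61.2% for Egr2, against a median of 52.4%. Among the 9178 windows with at least 60% GC, 7.54% held the motif at least 2 times and 0.370% at least 4 times. The whole palindrome TGACGTCA, present in 1.55% of the windows, and the NR4A monomer site NBRE, AAAGGTCA, present in 1.34%, were found in none of the 4 windows. The EGR site GCGGGGGCG, present in 2.57% of the windows, was found in the Nr4a1 window, 60 to 52 bases before the start site on the opposite strand, while the second EGR site searched, GCGTGGGCG (0.536%), was found in none. The Egr2 window held a CArG box, the binding element of serum response factor, 73 to 64 bases before the start site (a CArG box was found in 1.47% of the windows). The Nr4a2 window held a MEF2 site (1.69%) on the opposite strand, and the TATA box letters TATAAA (12.4%) matched inside that same site. A match describes letters in the window and not a bound site.

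**Figure D1:**
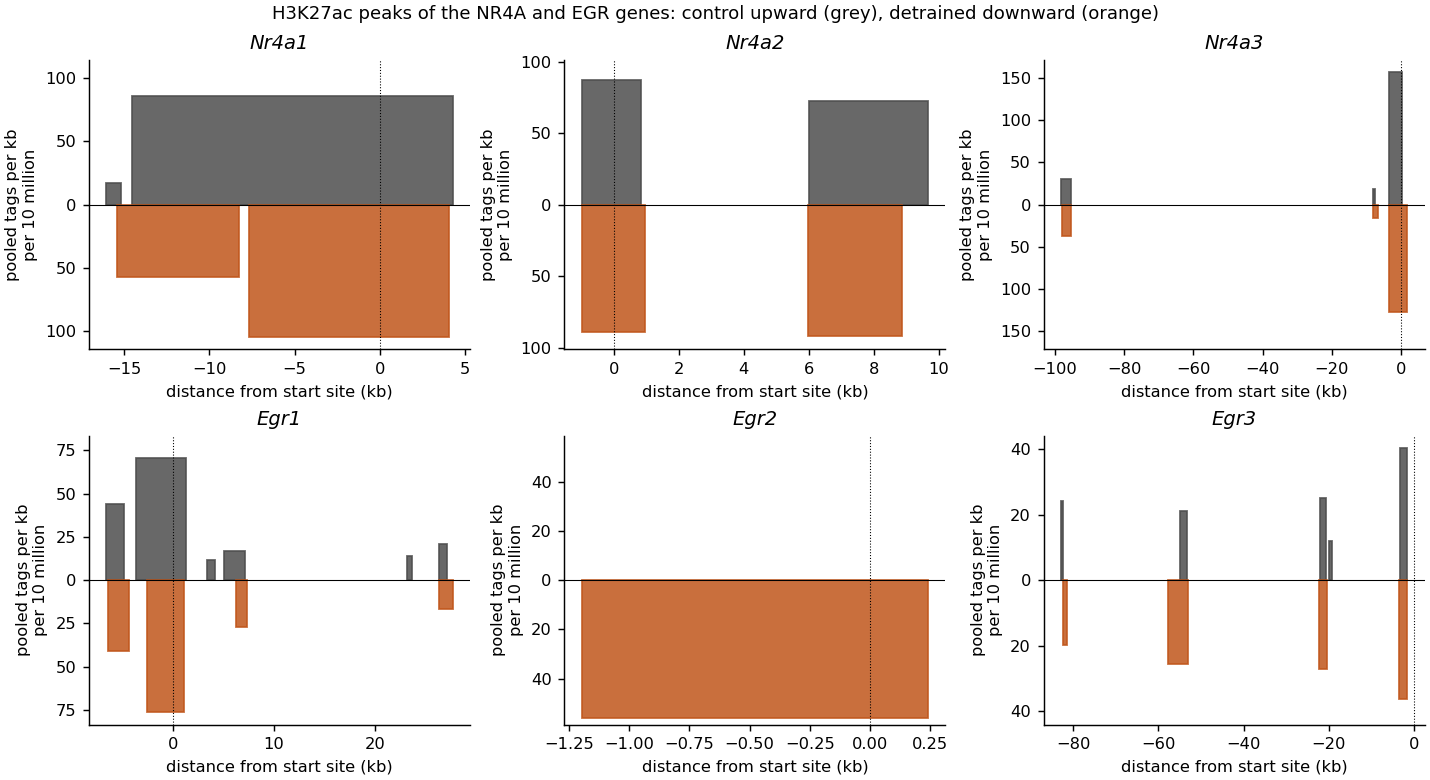
All 34 peaks of the 6 genes by distance from the start site in kb (dotted line, transcription running to the right), with pooled tags per kb per 10000000 total tags upward for control mice (grey) and downward for detrained mice (orange), and the width of a bar giving the length of the peak. The control list holds 1 peak of 18818 bp where the detrained list holds 2 at Nr4a1, and only the detrained list holds a peak at Egr2.

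Nr4a1, which encodes the receptor NUR77, lay in the widest and strongest domain of the 6 genes. In control mice 1 peak of 18818 bp at chr15:101252301-101271119, spanning the start site, held 1612.8 tags per 10000000 total tags (the scale of all tags given here, unless raw tags are named), rank 77 of the 46988 control peaks. In detrained mice the same ground was covered by 2 peaks, one of 11764 bp over the start site (chr15:101259165-101270929) with 1230.9 tags, rank 139 of 40721, and one of 7150 bp upstream (chr15:101251429-101258579) with 410.4 tags. A second control peak of 867 bp, 15.6 kb upstream, held 14.9 tags. Summed over the peaks annotated to Nr4a1, the tags were 1475 (C2) and 1785 (C3) in control and 1738 (Ex1) and 1552 (Ex2) in detrained libraries. Both detrained values thus lay between the control values, and the log2 ratio of detrained to control was 0.017 with an SD between libraries of 0.16 (pooled within groups, n = 2 libraries per group). Joining every control and detrained peak that overlapped in a chain gave a region of 35084 bp, chr15:101236035-101271119, which takes in a peak of each list annotated to another gene, and its tags were 2460 (C2) and 3047 (C3) in control and 2883 (Ex1) and 2648 (Ex2) in detrained libraries, again overlapping between the groups.

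The density of a peak, meaning tags plus 0.5 raw tags per kb of its called length on that scale, gave another picture at Nr4a1. Over the start site peaks it was 77.6 in C2 and 94.1 in C3 against 108 in Ex1 and 102 in Ex2, a log2 ratio of 0.29 with an SD of 0.15, and 0.15 without C2. Both detrained libraries lay above both control libraries. In tags per peak the order was the opposite, 1460 and 1770 against 1269 and 1196, with a log2 ratio of -0.38 (-0.25 without C3), since the called length of the detrained peak differed by a log2 ratio of -0.68. The direction at this pair of peaks thus followed the borders that were called, while the tags of the whole domain overlapped between the groups.

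Nr4a2, which encodes NURR1, had a promoter peak and a peak inside the gene in both lists. At the promoter (control chr2:57123166-57124990, detrained chr2:57123039-57124977) density was 87.0 (C2) and 87.9 (C3) in control and 99.8 (Ex1) and 79.1 (Ex2) in detrained libraries. The detrained libraries lay on either side of the control libraries, and the log2 ratio was 0.023 with an SD of 0.17, -0.14 without Ex1 and 0.19 without Ex2. The second peak (control chr2:57114339-57117992, detrained chr2:57115135-57118028), which the files place in intron 1 of 7 of the longer transcript and near a start site of a shorter one, had densities of 69.2 and 75.4 in control and 109 and 76.2 in detrained libraries. Here both detrained libraries were above both control libraries, by a log2 ratio of 0.34 with an SD of 0.27, which was 0.077 without Ex1 and 0.60 without Ex2, as Ex2 exceeded C3 by little and Ex1 stood apart. In tags per peak the same site gave 253 and 276 against 316 and 220, a log2 ratio of 0.0010, and the groups overlapped. Summed over both peaks, Nr4a2 held 411 tags (C2) and 435 (C3) in control and 509 (Ex1) and 373 (Ex2) in detrained libraries, so that the detrained libraries enclosed the control libraries.

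Nr4a3, which encodes NOR1, carried the densest peak of the 6 genes. Its promoter peak covered chr4:48041948-48045621 in control mice with 577.6 tags and chr4:48041846-48047120 in detrained mice with 669.7 tags, and it reached 1.5 kb further into the gene in the detrained list. Density was 160 (C2) and 155 (C3) in control and 133 (Ex1) and 121 (Ex2) in detrained libraries. Both detrained libraries were lower, with a log2 ratio of -0.31 and an SD of 0.070. In tags per peak both were higher, 702 and 640 against 587 and 568, with a log2 ratio of 0.21. The called length differed by 0.52 on the log2 scale, which is larger than either ratio. An intergenic peak 96.8 kb upstream (control chr4:47946997-47950023, detrained chr4:47947380-47949950) had densities of 25.9 and 35.9 in control and 41.5 and 32.7 in detrained libraries, which overlapped. A weak peak 7.88 kb upstream held 12.0 tags in control and 21.8 in detrained mice, over 651 and 1368 bp. Over all 3 peaks Nr4a3 held 675 and 690 tags in control and 831 and 745 in detrained libraries, a log2 ratio of 0.20 with an SD of 0.081 (0.13 without Ex1), while the covered length went from 7350 bp in control to 9212 bp in detrained mice and the mean density from 92.9 to 85.4 tags per kb.

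Egr1, which encodes the zinc finger factor also called ZIF268, had 6 control peaks and 4 detrained peaks. The peak over the start site held 344.6 tags over 4889 bp in control mice and 276.0 tags over 3628 bp in detrained mice, the detrained peak lying entirely within the control peak. Its density was 72.9 (C2) and 68.1 (C3) in control and 79.3 (Ex1) and 73.2 (Ex2) in detrained libraries. Both detrained libraries were above both control libraries, but C2 and Ex2 differed by less than the SD of 0.076 on the log2 scale, and the log2 ratio was 0.11, with 0.063 without C3, 0.056 without Ex1 and 0.17 without Ex2. In tags per peak the libraries gave 357 and 333 in control and 288 and 266 in detrained mice, a log2 ratio of -0.32 in the opposite direction. The peak 5.70 kb upstream had densities of 42.9 and 45.2 in control and 38.9 and 42.6 in detrained libraries, a log2 ratio of -0.11 (-0.050 without Ex1 and -0.18 without Ex2), and the weak peak 26.7 kb downstream 22.5 and 19.5 against 17.9 and 15.4, a log2 ratio of -0.34, and both turned to the opposite sign in tags per peak, at 0.13 (0.070 without Ex2) and 0.50. A further peak 6.12 kb downstream, whose borders overlapped too little to be paired, held 34.8 and 29.9 tags. The remaining control peaks, at the end of the gene and 23.4 kb downstream, held 9.28 and 7.01 tags, and no detrained peak overlapped them, as for 27.9% of all control peaks. Summed over all its peaks, Egr1 gave 492 and 486 tags in control and 429 and 400 in detrained libraries, a log2 ratio of -0.24 with an SD of 0.052, over a covered length of 10755 and 8202 bp, and the mean density was 45.5 and 50.5 tags per kb.

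Egr2, whose product KROX20 is best known from hindbrain patterning and myelination, was the gene for which the lists differed in kind. The control list held no peak annotated to Egr2 and none that overlapped its detrained peak. The detrained peak, chr10:67536673-67538110, covered the start site and the promoter window printed above and held 80.2 tags, 346 raw tags (95% exact Poisson interval 310.5 to 384, for counting error only). Density there was 53.8 in Ex1 and 58.0 in Ex2, and 60.3% of the detrained peaks held fewer tags. Of all detrained peaks 18% had no control peak over them. Among the 16157 with at least as many tags, of which the Egr2 peak is one of the joint weakest, this held for 88, or 0.545%. Among the 5213 with tags within 20% of those of the Egr2 peak, a range chosen after its value was seen, it held for 208, or 3.99%. The lists hold called peaks only, so the control signal at this site is not known from them, and no ratio was formed. The input at this peak was 25.5 normalised tags per kb, higher than at 95.6% of the detrained peaks. This and the other input values per kb come from the deposited shrunken log2 values and not from tag counts. They can therefore lie nearer the H3K27ac libraries than the input tags do. The input at the other detrained start site peaks was above that of 96.2% of detrained peaks for Egr1 (26.0 normalised tags per kb), 91.9% for Nr4a3 (22.96), 90.7% for Nr4a2 (22.3) and 83.3% for Nr4a1 (19.4). At the control start site peaks it was above that of 99.0% of control peaks for Nr4a3 (26.4), 91.5% for Egr1 (18.5), 90.5% for the Nr4a2 promoter (18.1) and 66.1% for Nr4a1 (12.2). The median input per kb over all listed peaks was 10.1 in the control and 13.1 in the detrained list, which were normalised apart. The control input held 10812470 tags and the detrained input 21298438, and the part of the inputs in the call at Egr2 was not tested.

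Egr3, a partner gene of Egr1 with a role in spindle development, had no peak over its start site in either list. Its nearest peak, 2.43 kb upstream (control chr14:70074108-70075917, detrained chr14:70074092-70075767), was intergenic. Density was 40.4 (C2) and 40.5 (C3) in control and 35.6 (Ex1) and 37.3 (Ex2) in detrained libraries. Both detrained libraries were lower, with a log2 ratio of -0.15 and an SD of 0.034, and this held in tags per peak, at 73.0 and 73.2 against 59.7 and 62.5 and a log2 ratio of -0.26. The 95% counting interval (exact binomial) of the density ratio, from -0.39 to 0.093, included 0, as did those at the 3 shared Egr1 peaks and at the Egr3 peak 21.2 kb upstream, while that of the ratio in tags per peak, from -0.50 to -0.018, did not.

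The other Egr3 peaks lay in introns of the neighbouring gene Pebp4 and were assigned to Egr3 by distance alone. The peak 21.2 kb upstream (control chr14:70055486-70056932, detrained chr14:70055225-70057151), in intron 6 of 6, had densities of 24.6 and 25.8 in control and 28.5 and 25.9 in detrained libraries. Both detrained libraries were higher, though Ex2 hardly exceeded C3, with a log2 ratio of 0.11 and an SD of 0.078 (0.039 without Ex1 and 0.18 without Ex2), and tags per peak agreed in direction at 0.52. The widest gap in listed tags between the groups lay 54.0 kb upstream in intron 4, where a control peak of 1726 bp (chr14:70022553-70024279) sat inside a detrained peak of 4550 bp (chr14:70019790-70024340). The called peaks held 45.7 tags in C2 and 27.3 in C3 against 122 in Ex1 and 113 in Ex2, a log2 ratio of 1.73 with an SD of 0.38 between peaks of unequal length. The control tags over the rest of the detrained peak are not known from the lists. Density, in contrast, was 26.5 and 15.8 in control and 26.7 and 24.9 in detrained libraries, and overlapped. Most of the summed difference of Egr3, 174 and 153 tags in control against 253 and 244 in detrained libraries, came from this pair of peaks, with mean densities of 27.3 tags per kb in both groups over 5981 and 9085 bp.

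**Figure D2:**
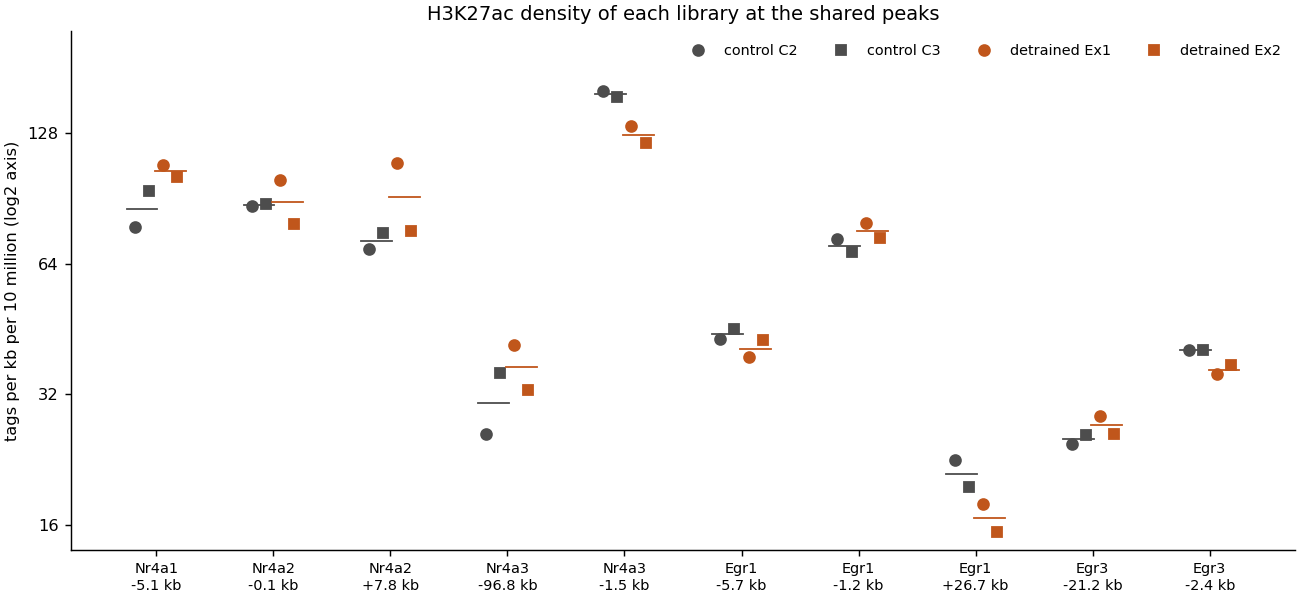
Density of each library, in tags per kb per 10000000 total tags on a log2 axis, at the 10 shared peaks of the 6 genes, labelled by the distance of the control peak from the start site, with control libraries in grey, detrained libraries in orange and lines at the group means (geometric, n = 2). The Nr4a3 promoter peak is the densest in every library, and the ratios of the group means run from 0.792 to 1.26.

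A shared peak was a control peak and a detrained peak that overlapped one to one over at least 50% of each, and the 6 genes had 10 of 26422. By density Ex1 and Ex2 were each below C2 and C3 at 4 of the 10, against 27.2% of all shared peaks, and each above them at 4, against 21.3%, while the libraries of the groups overlapped at 2, against 13607 (51.5%) of all. None of the 10 was at least 1.5-fold apart in either direction, against 2.06% of all shared peaks lower and 1.10% higher. The ratios ranged from -0.34 to 0.34 on the log2 scale with a median of 0.066, beside -0.026 over all shared peaks. Without Ex1 the median was -0.0053 and without Ex2 0.18. The log2 values deposited per library are shrunken, so that the libraries of a group look closer than their tags for weak peaks.

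Setting density beside tags per peak sorted these peaks. The sign differed between both measures at 5 of 10 shared peaks of the genes and at 48.2% of all shared peaks. At 1 peak of the genes, that of Egr3 at 2.43 kb upstream, both detrained libraries were lower by density and by tags, as at 9.60% of all shared peaks. At 1, that of Egr3 at 21.2 kb upstream, both were higher by density and by tags, as at 6.37% of all. At the other 8 the measures disagreed or the libraries overlapped in at least 1 of them. In tags over merged regions, formed by joining all overlapping peaks, 14 regions of the genes were compared. Only tags inside called peaks enter these sums, so that ground called in one list alone adds nothing for the other group. Ex1 and Ex2 were each above C2 and C3 at 7 of them, against 28.2% of all 31774 merged regions, and below at 2, against 29.5%. Of the 7, 3 were at Egr3, 2 at Nr4a3 and 2 at Egr1. The Egr3 regions 82.7, 54.0 and 21.2 kb upstream had log2 ratios of 0.60, 1.73 and 0.52, where control peaks covered 500 of 1361, 1726 of 4550 and 1446 of 1926 bp and detrained peaks 934, 4550 and 1926 bp, and the weak Nr4a3 region 7.88 kb upstream gave 0.86, with 651 bp covered by the control and 1368 bp by the detrained peak. In all 7 the detrained peak was the longer one, and in both regions that were lower it was the shorter one. The median over the 14 regions was 0.12, beside -0.010 over all.

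**Figure D3:**
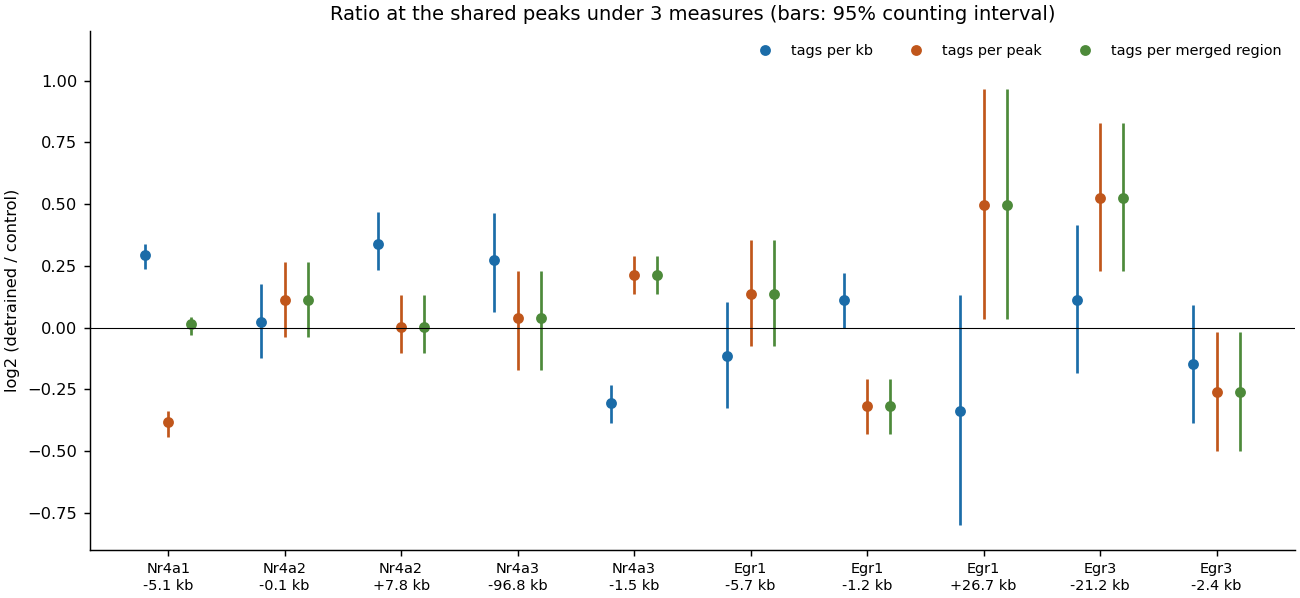
Log2 ratio of detrained to control at the same 10 shared peaks as tags per kb (blue), tags per peak (orange) and tags of the merged region (green), with bars for the 95% counting interval (exact binomial on pooled tags, which covers counting error only and not the spread between mice). Blue and orange points lie on opposite sides of 0 at 5 of the peaks.

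The genes were then ordered by level. At the leading shared peak, that with the highest mean density, Nr4a3 stood at 141 tags per kb over the 4 libraries, higher than the leading peaks of 99.1% of 12750 genes. Nr4a1 followed at 94.6, Nr4a2 at 88.2, Egr1 at 73.3 and Egr3 at 38.4, the last above 25.7% of genes. Nr4a3 was highest and Egr1 and Egr3 were in the fourth and last places in all 4 libraries, whereas Nr4a1 and Nr4a2 changed places in C2. The libraries of Nr4a1 and Nr4a2 overlapped, and so narrowly did those of Nr4a2 and Egr1, while those of Nr4a3 and Nr4a1 and of Egr1 and Egr3 did not. By density the nuclear receptor genes stood above Egr1 and Egr3 at their leading peaks in each library. In tags per peak Egr1 stood above Nr4a2 in each library, at 357 (C2), 333 (C3), 288 (Ex1) and 266 (Ex2) against 159, 160, 193 and 153. In tags per peak Nr4a1 came first with its long domain, and 4 of the 5 genes changed places.

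**Figure D4:**
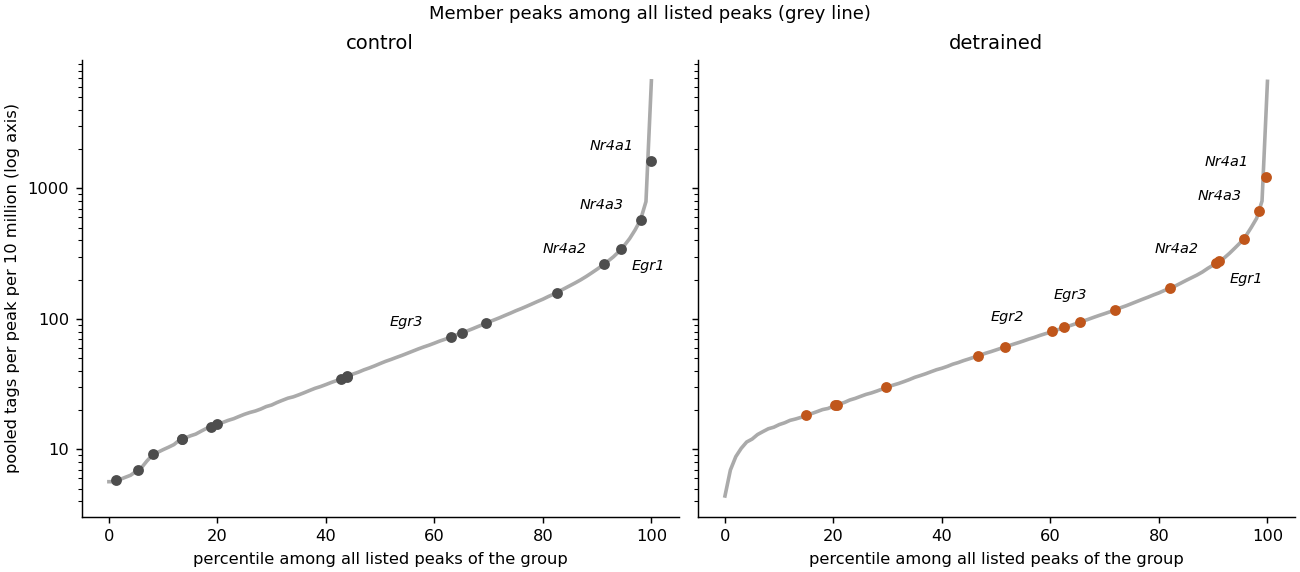
Pooled tags per peak per 10000000 total tags (log axis) against the percentile among all listed peaks of the group, for control (left) and detrained mice (right), with the grey line for all peaks and a point for each peak of the 6 genes, of which the strongest of each gene is named. The control peak of Nr4a1 holds rank 77, while the weakest control peak of Egr3 holds rank 45802.

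For each gene the 3 genes with the most similar leading peak over the 4 libraries, by root mean square difference in log2 density, were named. They were Ncor1, Rpl21 and Gm10433 for Nr4a3 (0.018, 0.031 and 0.032), Rccd1, Ripor1 and Cat for Nr4a1 (0.019, 0.028 and 0.040) and March6, Dynll2 and Pfdn6 for Nr4a2 (0.035, 0.036 and 0.037). For Egr1 they were Gm14023, Drg1 and Rbpj (0.018, 0.024 and 0.030) and for Egr3 Mir3066, Fam72a and Ipo8 (0.032, 0.033 and 0.042). Ncor1, a nuclear receptor corepressor, had densities of 158 (C2) and 155 (C3) in control and 134 (Ex1) and 124 (Ex2) in detrained libraries, nearly those of Nr4a3. With 4 libraries such likeness describes these values only.

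Other early genes of the contraction response were set beside them at the leading shared peak of each gene. By density Ex1 and Ex2 were each below C2 and C3 at 8 of 29 early genes and each above at 8, against 28.9% and 22% of the leading peaks of all genes, with a median log2 ratio of -0.022 beside -0.029 for all genes. This median was -0.11 without C2, 0.014 without C3, -0.047 without Ex1, 0.011 without Ex2 and 0.067 in tags per peak. By tags per peak 4 were lower and 10 higher, against 29.0% and 19.2% of the same peaks of all genes. The 4 densest were Per1, a circadian repressor, with a log2 ratio of 0.18, Klf9, a glucocorticoid-responsive factor, with -0.0022, and the AP-1 subunits Fos, with -0.31, and Jun, with -0.13. Per1 was above and Fos below in both detrained libraries, and in tags per peak Fos stood at 0.066, Klf9 at 0.075 and Jun at 0.067, each with overlapping libraries, and Per1 at 0.14, again above. Ppargc1a, the coactivator induced by exercise, had overlapping libraries and a log2 ratio of -0.073 by density, while in tags per peak both detrained libraries were higher, at 0.31. The list thus spread to both sides of 0, from -0.55 at Gadd45g to 0.64 at Fosb, and in tags per peak these were 0.44 and 0.031.

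Among partners and regulators of the NR4A and EGR factors both detrained libraries were lower at 6 of 15 genes and higher at 1, beside the same 28.9% and 22% of all genes, with a median log2 ratio of -0.093 beside -0.029, which was -0.0072 without Ex2, -0.20 without Ex1, -0.18 without C2 and -0.039 in tags per peak, by which 5 were lower and 2 higher (29.0% and 19.2% of all genes). The 4 densest were the MEF2 genes Mef2d (-0.14) and Mef2a (0.15), both with overlapping libraries, the retinoid receptor Rxrb (0.23), a partner of NR4A receptors, with both detrained libraries higher (0.0041 in tags per peak), and Sp1 (-0.093), with both lower. All 4 had overlapping libraries in tags per peak, with Mef2d at -0.039, Mef2a at -0.10 and Sp1 at -0.027. Rxra, also a partner, was at -0.70 by density with both detrained libraries lower, and at 0.21 in tags per peak with both higher. Nab1 and Nab2, corepressors of EGR factors, had overlapping libraries by both measures. Of genes of glucose and lipid use, in which NR4A targets are known, 4 of 13 were lower and 1 was higher, beside those shares of all genes, with a median log2 ratio of density of -0.13, which was 0.17 without C3 and -0.29 without C2, and by tags per peak 5 were lower and 2 higher. The 4 densest, Pfkm, Slc2a4, Gyg and Pygm, coding for phosphofructokinase, the glucose carrier GLUT4, glycogenin and glycogen phosphorylase, all had overlapping libraries by density, with ratios from -0.14 to 0.24. Both detrained libraries were lower in tags per peak at Pygm (-0.60) and Gyg (-0.32), while Pfkm (-0.023) and Slc2a4 (0.066) overlapped. Lpin1, a phosphatidate phosphatase, was the higher one by density, at 0.23 (0.49 in tags per peak), and Fbp2, the muscle fructose bisphosphatase, the lowest, at -0.76, and at -0.12 in tags per peak.

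**Figure D5:**
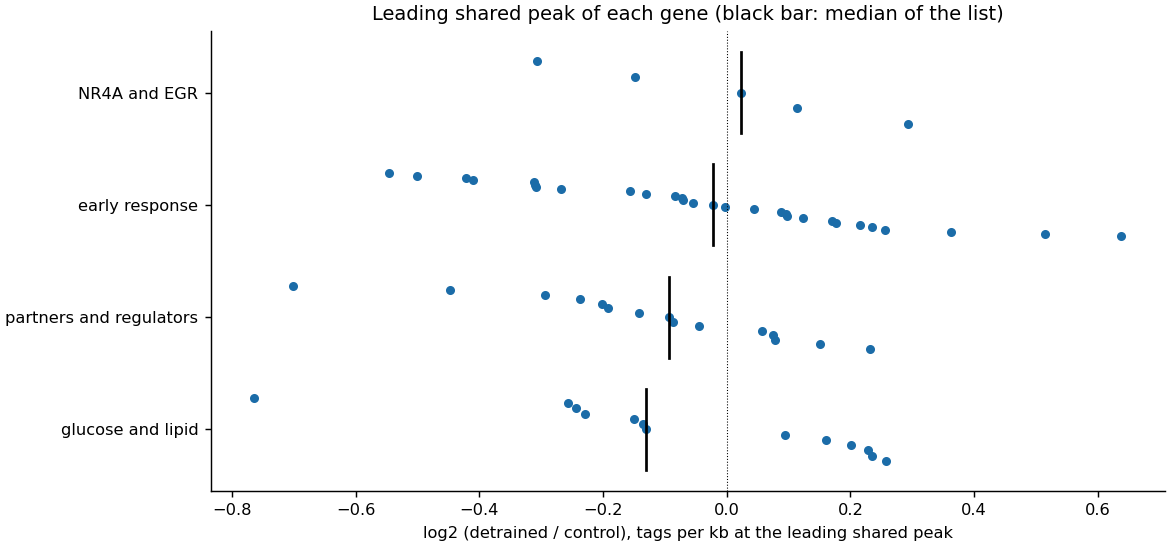
Log2 ratio of detrained to control density at the leading shared peak of each gene (points) for the NR4A and EGR genes and 3 lists of related genes, with black bars at the median of each list. All 4 lists lie on both sides of 0.

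Markers of the cells in the sample were read in the same way. By density 28.9% of all genes had a lower and 22% a higher leading peak, and in tags per peak 29.0% and 19.2%. Of 12 fibre markers 11 had a peak in each list, and their summed tags ran from 8266 to 10364 in control and from 9850 to 10330 in detrained libraries, while by density at the leading peak 3 of 10 were lower and 1 was higher. The higher one, Tnni2, stood at -0.12 in tags per peak with overlapping libraries, and by that measure 1 of 10 was lower and 3 were higher. At the leading peak of 5 fibroblast markers both detrained libraries were higher by density at 4 (in tags per peak also at 4, Col1a2 at -0.020 then overlapping and Dcn at 0.20 then higher), and their summed tags were 2722 to 2811 in control and 3223 to 3336 in detrained libraries. Endothelial markers, all 6 with peaks, were higher by density at 2 of 5, Tek and Kdr, which stood at -0.19 and -0.094 in tags per peak, by which Cdh5 (1.04) and Tie1 (0.51) were higher and Tek lower, with sums of 2506 to 2970 and 2551 to 3280. Macrophage markers had peaks for 4 of 7 names, of which Emr1 and Adgre1 stand for the same gene. Their sums were 212 to 250 and 285 to 335 (no peak was annotated to Cd68). By density both with a leading shared peak, Csf1r and Lyz2, had overlapping libraries, with ratios of 0.037 and -0.070. In tags per peak Lyz2 was higher, at 0.69. Satellite cell markers summed to 348 to 377 and 499 to 512, while by density 1 was lower (Vcam1, -0.19), 1 higher (Pax7, 0.11) and 1 overlapped (Myf5, -0.080), with the same calls in tags per peak. Vascular smooth muscle markers summed to 320 to 324 and 289 to 297, and both read by density, Acta2 (-0.0015) and Cnn1 (0.073), overlapped, while in tags per peak Acta2 was higher, at 0.36. These sums, too, count tags in called peaks only. Of 4 markers of other tissues Alb and Nppa had no peak, and the list summed to 64.5 to 70.0 and 72.9 to 85.4. Of these markers 1 had a peak in the control list and 2 in the detrained list. At Rbfox3, the only one with a shared peak, both detrained libraries were lower, at -0.40 by density and -0.52 in tags per peak. The NR4A and EGR genes are also active in fibroblasts, vessel and immune cells, and the part of these cells in the differences at Egr2, Egr3 and Nr4a3 was not tested. H3K27ac libraries had 20805019 to 22400894 total tags, of which 44.7% to 49.4% fell in listed peaks. As normalisation was done on each table apart, tests across them were left out, and an exact permutation test of 2 libraries against 2 cannot give a two-sided p below 0.333.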

How the data were processed

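H3K27ac ChIP-seq of quadriceps was compared between 2 control and 2 detrained libraries, with 1 input per group. Per the study's methods, Bowtie (version 1.2 in the submitters' processing notes) was used by the authors for alignment to mm10, and they called peaks with HOMER on the pooled libraries of a group against its input, and annotated each peak to the nearest start site. The deposited signal per peak is the pooled tags per 10000000 total tags. Each library also has a log2 value, deposited as a regularized log made within HOMER, which is shrunken and normalized to total tags within a table. The authors' fold over input and adjusted p-value served only to filter and rank peaks.

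Peaks were taken where the gene name equalled 1 of the 6 genes. Pooled tags were shared out between libraries by total and 2 to the power of the log2 value. Density was (tags + 0.5) per kb per 10000000, and shared peaks overlapped one to one over at least 50% of each. Columns C2 and C3 were assigned to the control group and not to a numbered mouse. Genes and lists were chosen with earlier results of these data known. The rule for named genes took the 6 genes, the 3 most similar genes of each and up to 4 examples of highest density per list. Other genes named in the lists (Ppargc1a, Gadd45g, Fosb, Rxra, Nab1, Nab2, Lpin1 and Fbp2) were chosen after their values were seen. Motifs were searched on both strands, with the CArG box and MEF2 site by name. Simulated data served to check the calculations. That check does not cover the shrinkage of the deposited log2 values or the called borders, which differ between the lists. Promoter windows came from RefSeq for 4 of the 6 genes. Alternatives covered peak length, normalization, overlap, filters and leaving out each library. Python 3.11.15, numpy 2.4.6, pandas 2.3.3 and scipy 1.17.1 were used.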

Additional observations from a re-analysis of the deposited data

How the results depend on the processing

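The median log2 ratio of density at the shared peaks (0.066) was 0.12 when libraries were scaled to tags within listed peaks, 0.092 with the median of all shared peaks set to 0, 0.023 with any one to one overlap, with an overlap of at least 80% and in promoter peaks only, and 0.11 with stricter peaks (4-fold or more over input, with an adjusted p under 0.001, in both lists) and in distal peaks only. With 1 library left out it ranged from -0.0053 to 0.18. The value for promoter peaks only is that of the Nr4a2 promoter peak. By its centre, this was the only shared peak within 1000 bp of a start site in the control list. The distal peaks include the Nr4a1 peak that spans the start site, so these medians do not set promoters against distal sites. The counts of peaks with libraries apart (4 lower, 4 higher) became 2 lower and 5 higher with that scaling, 1 lower and 0 higher with at least 80% overlap, which left 3 shared peaks, and 0 and 0 at 1.5-fold or more. Under the stricter filter the control list held 9 peaks of the genes in place of 18 and the detrained list 12 in place of 16, while 50.7% of all control and 61.5% of all detrained peaks passed it, and with equal numbers of the strongest peaks, 86.7% of the control and 100% of the detrained list, the counts were 13 and 16. Over merged regions, an alternative chosen after seeing the data that sums tags in called peaks only, the median was 0.12 with 2 lower and 7 higher. At the leading peak the direction turned in tags per peak for Nr4a1 (-0.38), Nr4a3 (0.21) and Egr1 (-0.32), which follows from the called length, and in tags per merged region for Nr4a3 (0.21) and Egr1 (-0.32). With at least 80% overlap Nr4a3 gave 0.28, as another of its peaks then led. At that peak the libraries of the groups overlapped, and the ratio was 0.039 without C2 and 0.51 without C3. With that overlap Nr4a1 and Egr1 had no leading peak left (Nr4a1 likewise had no one to one pair without a minimum overlap). For other changes the cause was not tested, and the remaining alternatives kept the direction of each leading peak except that of Nr4a2, which was -0.14 without Ex1.

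No paired analysis was possible because columns of the groups share a single number (C2 and C3, Ex1 and Ex2) and the values come from no test. With 2 libraries per group, called borders and differences between libraries limit each comparison.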
